A study of Mus musculus with 39 samples.

Results

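Genes made by fat cells, 10 of the 22609 genes in the count files, were followed in mouse hind paw and dorsal root ganglion (DRG) samples after the chemotherapy drug paclitaxel (PTX). They were taken by symbol from a list of known fat cell genes: Adipoq, Lep, Plin1, Plin4, Cidec, Fabp4, Cfd, Retn, Lpl and Pck1. All 10 were measured in all 39 libraries and passed the filter on low counts in each tissue. The values are deposited read counts per gene, given here as CPM, which are counts scaled to the same fixed total of gene reads in every library.

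The libraries come from C57 mice aged 8 to 12 weeks and fall into 13 groups of 3. In paw these were females 2, 6, 16 and 26 days after PTX, males 2, 6 and 15 days after PTX, and vehicle females. In DRG they were females 2 and 6 days after PTX, males 2 and 6 days after PTX, and vehicle females. The labels name the vehicle groups WT controls and give C57 as the strain of every group. Titles of all PTX groups hold the word “short”, and those of the male PTX groups also hold the letters LC, absent from the female ones. No title says what LC marks, and it cannot be told apart from sex among treated animals. PTX was given by 2 intraperitoneal injections of 3 mg/kg, one day apart, and the days count from the last injection. Vehicle tissue was taken 1 day after injection, a day without treated libraries. Day and treatment therefore cannot be told apart in any comparison with vehicle. Males given vehicle were not analysed here. The paw samples were punch biopsies and the DRG samples joined the lumbar ganglia L3 to L5, in both cases from both sides of the body. No label says that the 3 libraries of a group are separate animals, so the p-values measure only how far these libraries spread, and part of that spread may be technical.

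Libraries held 16781618 to 26136854 gene reads. The share of reads that overlapped several genes was 0.21% to 0.3% in the 18 treated-female libraries and 0.54% to 0.75% in the 21 libraries of vehicle females and treated males. Any comparison of treated females with vehicle females or with males crosses these 2 sets of libraries, and the set cannot be told apart from treatment or sex in it. Keratinocyte markers summed to 90653 to 157991 CPM in paw and 27.8 to 276 CPM in DRG, and sensory neuron markers to 51.3 to 99.8 CPM in paw and 20124 to 25358 CPM in DRG, so the 2 tissues carried the markers of their labels.

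White adipocytes store triglyceride in one large droplet and secrete hormones. In skin they form the dermal fat layer, and around ganglia and nerves they lie in the connective tissue outside the capsule, where they may be taken along in dissection. Adipoq (adiponectin), Lep (leptin) and Retn (resistin, made by fat cells in mice) are secreted hormones, and Cfd (adipsin) is the complement protease factor D. Plin1, Plin4 and Cidec coat or enlarge the lipid droplet. Lpl releases fatty acids from circulating fat, Fabp4 carries them inside the cell, and Pck1 makes the phosphoenolpyruvate from which fat cells build the glycerol of triglyceride. The fat cell programme is driven by PPARγ with its partner RXRα and by the C/EBP factors.

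The start sites of 8 members matched RefSeq promoter entries (GRCm38.p6), and 4 of the sequences are shown because they hold a C/EBP element or belong to the gene that changed most after PTX in paw. Each is the 250 bases before the annotated start, 5′ to 3′ on the gene's strand, with the C/EBP element TTGCNNAA in capitals. They are chr6:29059971-29060220 on the plus strand for Lep, chr7:79732777-79733026 on the minus strand for Plin1, chr6:113434765-113435014 on the minus strand for a second start of Cidec, and chr2:173152823-173153072 on the plus strand for Pck1.
Lep: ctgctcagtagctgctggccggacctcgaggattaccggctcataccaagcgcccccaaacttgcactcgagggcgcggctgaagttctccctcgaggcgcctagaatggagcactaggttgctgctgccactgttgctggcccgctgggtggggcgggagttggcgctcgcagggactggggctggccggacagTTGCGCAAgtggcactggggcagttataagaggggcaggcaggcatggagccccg
Plin1: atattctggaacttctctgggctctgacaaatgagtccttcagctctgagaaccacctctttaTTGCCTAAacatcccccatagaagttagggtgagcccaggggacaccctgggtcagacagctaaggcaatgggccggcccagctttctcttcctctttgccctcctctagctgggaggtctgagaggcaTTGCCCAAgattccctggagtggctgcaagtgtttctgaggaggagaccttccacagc
Cidec: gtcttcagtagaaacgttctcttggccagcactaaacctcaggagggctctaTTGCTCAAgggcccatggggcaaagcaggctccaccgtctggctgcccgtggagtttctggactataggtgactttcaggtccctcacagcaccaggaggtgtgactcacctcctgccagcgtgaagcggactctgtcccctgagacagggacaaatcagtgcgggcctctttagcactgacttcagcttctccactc
Pck1: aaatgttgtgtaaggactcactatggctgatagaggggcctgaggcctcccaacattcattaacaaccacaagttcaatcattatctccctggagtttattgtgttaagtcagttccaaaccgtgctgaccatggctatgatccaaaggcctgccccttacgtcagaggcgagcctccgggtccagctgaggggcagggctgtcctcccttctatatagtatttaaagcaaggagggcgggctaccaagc
On both strands together, TTGCNNAA was found in 3 of the 8 members, Lep, Plin1 and Cidec, and in 9.56% of 32851 mouse promoter windows of the same length. Plin1 held it at 2 places. Cidec was searched at 2 starts and held it before the second only. A member was counted with a match at any of its starts, whereas the 9.56% counts single windows. The PPAR and RXR element, AGGTCA repeated after a gap of 1 base, was in none of the 8 and in 0.0335% of all windows, its single hexamer AGGTCA was in none of the 8 and in 14.0% of all, and the TATA box letters TATAAA were in none of the 8 and in 12.4%. These are matches of letters in a short window, not binding sites.

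**Figure D1:**
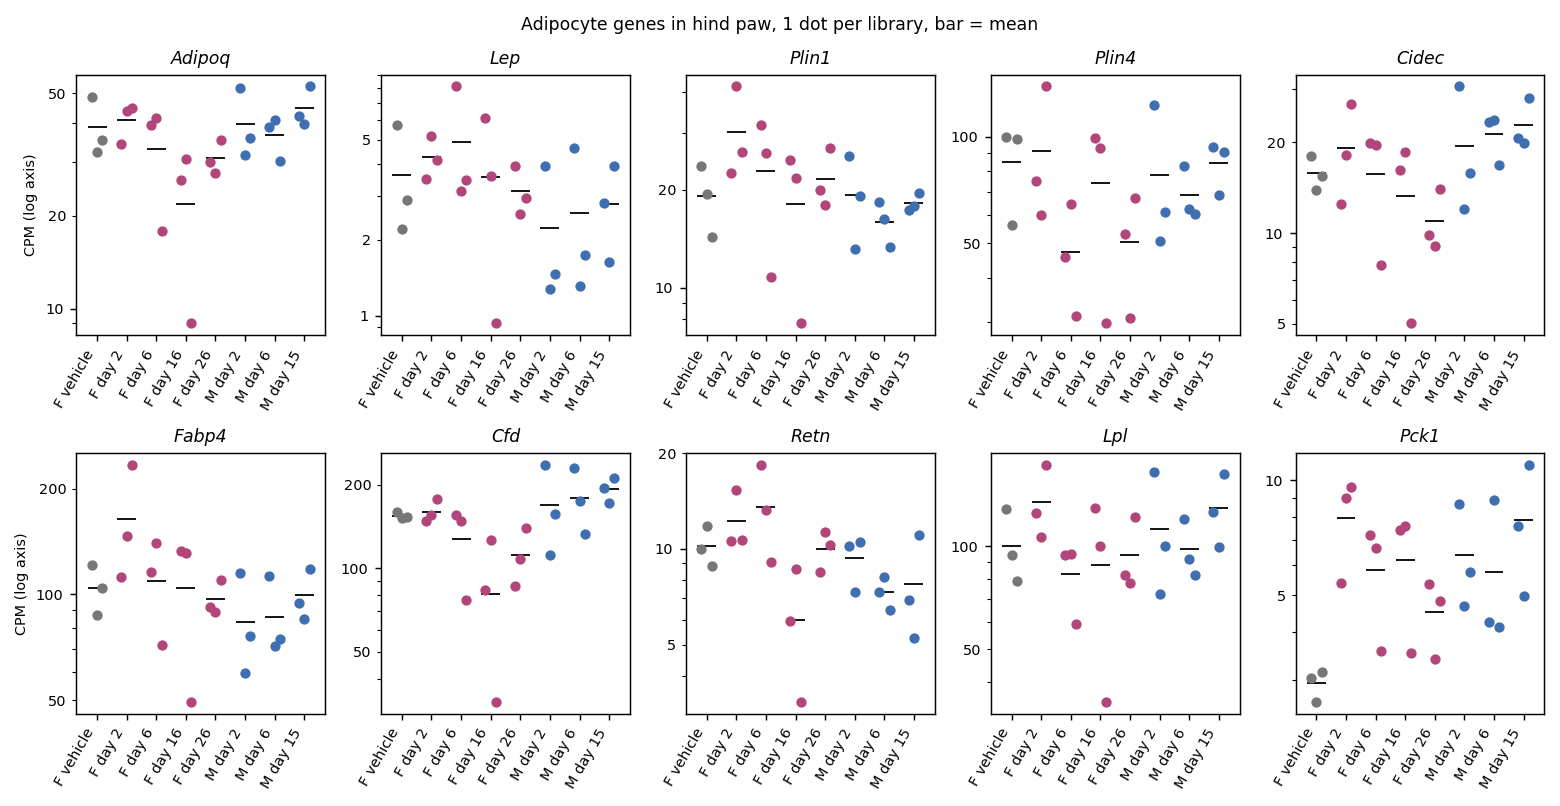
CPM (log axis) of the 10 adipocyte genes in paw, with 1 dot per library and a bar at the mean of each group of 3: treated females (F) in pink, treated males (M) in blue and vehicle females in grey. The 3 vehicle libraries sit at the bottom of the Pck1 panel, at 2.63 to 3.15 CPM, and replicate 3 of day 16 females is the lowest library in the other 9 panels.

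In paw the 10 genes summed to 177 to 846 CPM, with a median of 532 CPM. Levels of different genes were compared per length of transcript, as CPM divided by transcript length in kilobases (RPKM). By median RPKM over the 24 paw libraries, Cfd came first (165, range 35.9 to 256), followed by Fabp4 (119, range 55.2 to 261). Adipoq (median 27.5, range 6.93 to 40.7) and Lpl (24.2, range 8.52 to 42.2) followed. Plin4 stood at 11.5, Cidec at 10.1, Retn at 8.39, Plin1 at 6.92, Pck1 at 2.02 and Lep at 1.01. Fabp4 and Adipoq did not overlap. The ranges of all other neighbours in this order did, so it is an order of medians only.

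In DRG the 10 genes summed to 39.4 to 331 CPM, with a median of 113 CPM. Cfd (median 38.1 RPKM) and Fabp4 (27.2 RPKM) again came first. Lpl (5.11), Adipoq (3.99), Retn (2.19), Cidec (2.03), Pck1 (1.71), Plin4 (1.31), Plin1 (0.931) and Lep (0.0783) followed, all as median RPKM over 15 libraries. All neighbours in this order overlapped in range. Lep had at most 29 reads in any DRG library and none in replicate 1 of day 2 males, where a count of 0 allows up to 0.115 CPM, a limit that covers counting error only.

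The adipocyte genes were higher in paw than in DRG. In vehicle females 9 of the 10 were called higher and 1 lower (edgeR quasi-likelihood F test, called at a Benjamini-Hochberg adjusted p under 0.05 over all genes). Of all 16547 genes tested, 81.1% were called in that comparison and 40.0% were called higher, so being called at all says little here, and the direction is the description. The members' median log2 change was 1.87, beside 0.0 for all genes. The calls numbered 8 in females on day 2, 9 in females on day 6, 10 in males on day 2 and 10 in males on day 6, all of them higher in paw. Of all genes, 79.1%, 79.8%, 79.9% and 80.9% were called in these 4 comparisons, and 39.3%, 38.2%, 39.3% and 39.7% were called higher. In bulk tissue, fewer fat cells, less RNA per fat cell and RNA of these genes from other cells cannot be told apart. Skeletal muscle markers summed to a median of 7307 CPM in paw and 639.5 CPM in DRG. Of the 18 other white adipocyte markers described below, more were called lower than higher in vehicle paws.

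Plin4, the droplet coat protein that is also made in muscle, had 100, 56.3 and 98.6 CPM in vehicle paws, against 7.47, 9.54 and 11.9 CPM in vehicle DRG. The groups did not overlap, and the log2 change was 3.15 ± 0.54 (SE, edgeR adjusted p = 4.21e-06). Lep had 5.74, 2.2 and 2.89 CPM in vehicle paws, against 0.0794, 0.172 and 0.363 CPM in vehicle DRG, a log2 change of 4.11 ± 0.78 (edgeR adjusted p = 2.28e-05). Of the 10 members, Lep had the largest change in this comparison and rested on 2, 4 and 9 reads in DRG. The other 7 members that were higher in vehicle paws had log2 changes of 1.41 to 2.42.

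Pck1 was the one member that ran the other way in vehicle animals. It had 3.04, 2.63 and 3.15 CPM in vehicle paws, against 8.06, 4.55 and 9.77 CPM in vehicle DRG, without overlap. The log2 change was -1.33 ± 0.59 (edgeR adjusted p = 0.038). In treated animals the Pck1 change was 0.03 ± 0.56 on day 2 and 0.13 ± 0.57 on day 6 in females, neither called, and 1.33 ± 0.59 (adjusted p = 0.0399) on day 2 and 1.85 ± 0.61 (adjusted p = 0.00693) on day 6 in males. Relative to Adipoq, Pck1 stood at 0.0624 to 0.393 in paw and at 0.482 to 1.31 in DRG, as a ratio of CPM. These ratios did not overlap between the tissues and are given without a test.

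Several of these calls rested on single libraries. The vehicle call for Pck1 was lost without DRG replicate 1 (log2 change -1.27, adjusted p = 0.0754), DRG replicate 3 (-1.11, 0.114), paw replicate 1 (-1.36, 0.0703), paw replicate 2 (-1.26, 0.0915) or paw replicate 3 (-1.38, 0.069). In the same comparison Cfd lost its call without DRG replicate 1 (1.32, 0.067) or DRG replicate 2 (1.31, 0.0684). Cidec lost its call without DRG replicate 1 (1.36, 0.0797), DRG replicate 2 (1.25, 0.1) or paw replicate 1 (1.4, 0.0593). On day 2 in males, Pck1 lost its call without DRG replicate 1 (0.82, 0.197), DRG replicate 2 (1.32, 0.0803), paw replicate 1 (1.07, 0.131) or paw replicate 3 (1.39, 0.0528), and on day 6 without paw replicate 2 (1.39, 0.0557). On day 2 in females, leaving out DRG replicate 2 ended the calls for Cfd (1.14, 0.0603) and Retn (0.91, 0.0665). With only the compared groups in the fit, the calls for Fabp4 (1.71, 0.0628) and Retn (1.39, 0.0698) in day 2 females and for Pck1 (1.34, 0.105) in day 2 males were lost. Adipoq, Lep, Plin1, Plin4, Fabp4 and Lpl were called in all 5 pairs and kept each of these calls without each library in turn.

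**Figure D2:**
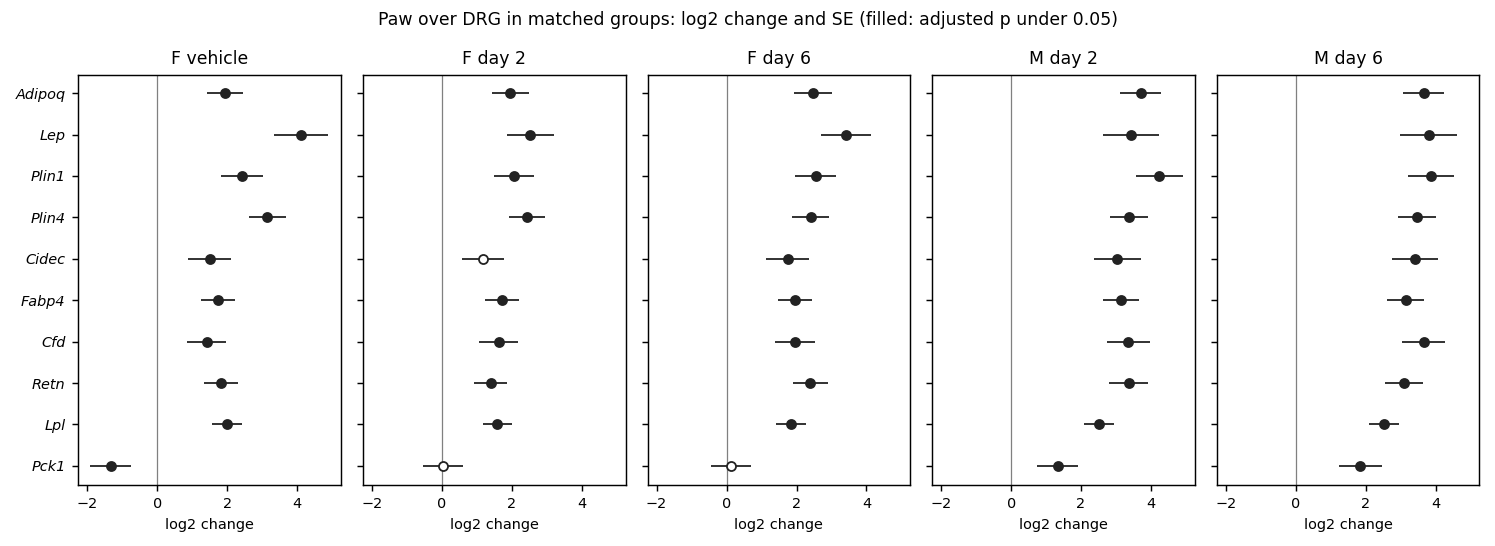
Log2 change of paw over DRG (x axis) with its SE for the 10 adipocyte genes in 5 matched groups; filled points have an adjusted p under 0.05. In vehicle females Pck1 is the only gene left of zero, at -1.33, and in day 6 males all 10 genes lie between 1.85 and 3.86.

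In paw, edgeR with all libraries in the fit called 1 of the 10 genes in treated females over vehicle. Pck1, the enzyme that feeds glycerol synthesis in fat cells, had 5.38, 8.98 and 9.59 CPM in females on day 2, 7.18, 6.67 and 3.58 CPM on day 6, 7.41, 7.61 and 3.52 CPM on day 16 and 5.36, 3.41 and 4.83 CPM on day 26. Vehicle females had 3.04, 2.63 and 3.15 CPM. Every treated female library lay above every vehicle library. On day 16 the libraries of 39.5% of all genes did not overlap vehicle, in either direction. That share is not given here for days 2, 6 and 26, so the separation is a description only. The log2 change over vehicle was 1.53 ± 0.37 on day 2 (edgeR adjusted p = 0.00479), 1.12 ± 0.37 on day 6 (0.029), 1.16 ± 0.37 on day 16 (0.0321) and 0.72 ± 0.38 on day 26 (0.197, not called).

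The called share was 1 of 10 members on days 2, 6 and 16, against 29.0%, 29.5% and 21.7% of all 15346 genes tested, and 0 of 10 on day 26, against 20.4%. The shares stand side by side with no test between them. On day 26 none had an unadjusted p under 0.05 and DESeq2 also called 0.

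Males allow a look at Pck1 within the other set of libraries, although sex and treatment cannot be told apart there. Pck1 had 8.67, 4.7 and 5.76 CPM in males on day 2, 4.26, 8.87 and 4.13 CPM on day 6 and 7.61, 4.99 and 11 CPM on day 15, all above the 3 vehicle female libraries. How many of all genes separated likewise is not given here. Over vehicle females the log2 change was 1.18 ± 0.37 on day 2 (edgeR adjusted p = 0.0667), 1.03 ± 0.37 on day 6 (0.108) and 1.46 ± 0.37 on day 15 (0.0335). Day 15 was thus called, as the 1 member of 10, beside 4.41% of all genes, and 0 of 10 were called on day 2 (5.95% of all genes) and day 6 (5.97%), with 1 of 10 at an unadjusted p under 0.05 on each. DESeq2 called Pck1 on day 2 (1.17, adjusted p = 0.0252) and none on day 6. All of these comparisons share the 3 vehicle libraries, of which none exceeded 61 Pck1 reads. Fibroblast markers summed to 8235 to 12369 CPM in the male paws, against 2927 to 4340.2 CPM in vehicle female paws. Macrophage markers summed to 450.4 to 957 CPM, against 250.2 to 408 CPM. The sums of keratinocyte, endothelium and skeletal muscle markers overlapped between males and vehicle females. The part of these differences in the Pck1 values was not tested.

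Leaving out a library often ended the later calls. The day 2 call in females held without each library in turn. On day 6 the call was lost without vehicle replicate 1 (log2 change 1.17, adjusted p = 0.0653), vehicle replicate 2 (1.08, 0.0766), vehicle replicate 3 (1.16, 0.0683), day 6 replicate 1 (0.91, 0.121) or day 6 replicate 2 (1.07, 0.0676). On day 16 it was lost without vehicle replicate 1 (1.19, 0.0712), 2 (1.1, 0.103) or 3 (1.2, 0.0763) and without day 16 replicate 1 (1.03, 0.104) or 2 (0.99, 0.113), and with only the compared groups in the fit (1.13, 0.0547). In males on day 15 it was lost without vehicle replicate 1 (1.51, 0.0794), 2 (1.41, 0.14) or 3 (1.49, 0.0931) and without day 15 replicate 1 (1.51, 0.0833) or 3 (1.17, 0.165).

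**Figure D3:**
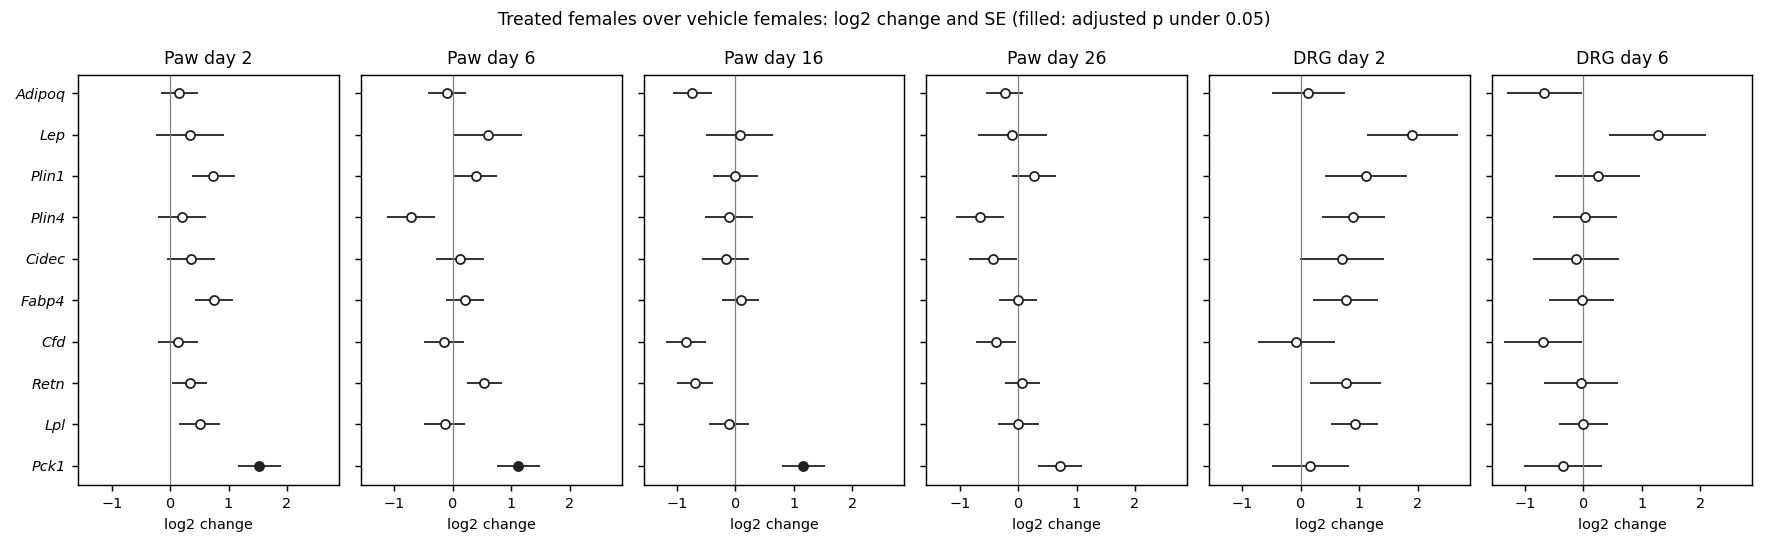
Log2 change of treated females over vehicle females (x axis) with its SE for the 10 adipocyte genes, on 4 days in paw and 2 in DRG; filled points have an adjusted p under 0.05. Pck1 is filled on days 2, 6 and 16 in paw, at 1.53, 1.12 and 1.16, and no point is filled in DRG.

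With all libraries in the fit, no hormone or droplet gene passed the edgeR test against vehicle in paw. Adipoq had 34.3, 43.6 and 44.6 CPM in females on day 2, 39.3, 41.5 and 17.9 CPM on day 6, 26.1, 30.6 and 8.95 CPM on day 16 and 29.8, 27.6 and 35.2 CPM on day 26, against 48.7, 32.3 and 35.3 CPM in vehicle. On day 16 its 3 libraries lay below all vehicle libraries, with a log2 change of -0.74 ± 0.33 (edgeR adjusted p = 0.117). Cfd did likewise on day 16, at 83.5, 126 and 33.1 CPM against 159, 152 and 153 CPM in vehicle, a log2 change of -0.85 ± 0.34 (0.0842), which DESeq2 called (-0.86, adjusted p = 0.0403). The day 16 values turned on 2 libraries. Without day 16 replicate 2, Adipoq (-1.06, edgeR adjusted p = 0.0484), Cfd (-1.32, 0.0138) and Retn (-1.05, 0.0343) were called lower than vehicle and Pck1 was not called, where 17.5% of all genes were called. Without day 16 replicate 3, Adipoq stood at -0.39, Cfd at -0.5 and Retn at -0.43, none called. With all libraries in the fit the day 16 changes of Lep (0.07 ± 0.58), Fabp4 (0.09 ± 0.32) and Plin1 (-0.0 ± 0.38) were smaller than their SE. The largest change on day 2 beside Pck1 was Fabp4, at 0.75 ± 0.32 (0.0876), which was called without day 2 replicate 1 (0.97, 0.0405). In all, 4 of 10 members had libraries that did not overlap vehicle on day 16, against 39.5% of all genes.

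Replicate 3 of day 16 females was low throughout, with the lowest value of the 24 paw libraries for each member other than Pck1. Its Cfd level of 33.1 CPM compares with 77.1 CPM in the next lowest paw library, and its Lep level of 0.931 CPM with 1.28 CPM. The mean level of the muscle genes in it was 5.79 log2 CPM, against 10.29 and 10.61 in the other two libraries of the group. A link between the muscle level and its low values was not tested.

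Retn, the hormone resistin, was the one member that edgeR called between treated days in paw with all libraries in the fit. It had 5.93, 8.65 and 3.31 CPM in females on day 16, against 18.4, 13.3 and 9.07 CPM on day 6. The groups did not overlap, and the log2 change was -1.24 ± 0.31 (edgeR adjusted p = 0.0204), beside 8.89% of all genes called. The call was lost without day 6 replicate 1 (-0.95, adjusted p = 0.0818), without day 16 replicate 1 (-1.23, 0.0763) or 3 (-0.96, 0.0694), and with only the compared groups in the fit (-1.23, 0.166). In females no member was called for day 6 over day 2 (1 of 10 at an unadjusted p under 0.05, 0.873% of all genes called), day 16 over day 2 (3 of 10, 1.48%), day 26 over day 2 (2 of 10, 0.0%) or day 26 over day 16 (1 of 10, 1.06%). DESeq2 called 1 member for day 16 over day 2 and none in the other three. In males none was called for any pair of the 3 days by edgeR or DESeq2, none had an unadjusted p under 0.05, and edgeR called 0.0% of all genes in these pairs.

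At matched days in paw, Fabp4 and Retn were higher in treated females than in treated males, 1 on each day. Fabp4, the fatty acid carrier that capillary endothelium and macrophages also make, had 112, 147 and 234 CPM in day 2 females, against 115, 59.6 and 76.1 CPM in day 2 males. The ranges overlapped by one library, and the log2 change was 1.0 ± 0.32 (edgeR adjusted p = 0.0234), where 31.2% of all genes were called. The call was lost without female replicate 3 (0.66, 0.167), male replicate 2 (0.82, 0.111) or male replicate 3 (0.94, 0.0843), and with only the compared groups in the fit (1.0, 0.0895). Retn had 18.4, 13.3 and 9.07 CPM in day 6 females, against 7.34, 8.19 and 6.42 CPM in day 6 males, without overlap. Its log2 change was 0.97 ± 0.3 (edgeR adjusted p = 0.0168), where 37.3% of all genes were called, and the call was lost without female replicate 1 (0.67, 0.119) or male replicate 3 (0.92, 0.0567). The difference between the sexes in the change of day 6 over day 2 was not called for any member (lowest edgeR adjusted p = 0.603, none with an unadjusted p under 0.05) or for any other gene (0.0%).

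**Figure D4:**
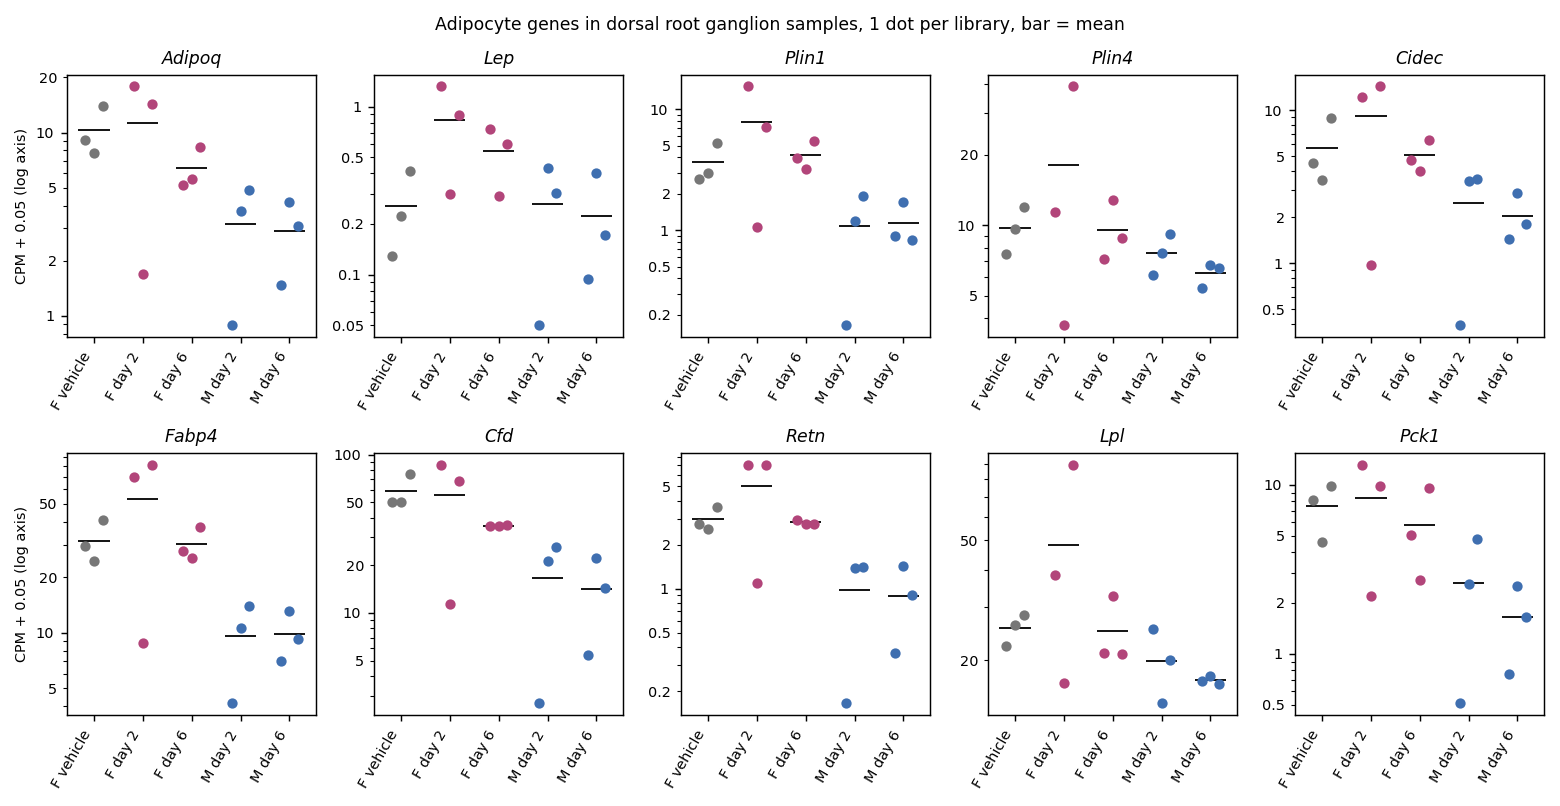
CPM plus 0.05 (log axis) of the 10 adipocyte genes in DRG samples, with 1 dot per library and a bar at the mean of each group of 3: treated females (F) in pink, treated males (M) in blue and vehicle females in grey. Replicate 2 of day 2 females lies below the other two in all panels, and in day 6 the 3 female libraries lie above the 3 male ones for every gene except Lep.

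In DRG samples the adipocyte genes varied widely between libraries of one group, and the male libraries were mostly the low ones. Adipoq had 17.8, 1.64 and 14.3 CPM in day 2 females, 5.16, 5.54 and 8.31 CPM in day 6 females and 9.06, 7.73 and 14.0 CPM in vehicle females. In males it had 0.842, 3.69 and 4.8 CPM on day 2 and 1.42, 4.12 and 3.06 CPM on day 6. All 6 male libraries lay below all vehicle female and all day 6 female libraries. Replicate 2 of day 2 females lay within the male range.

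On day 2, 5 of the 10 members were called higher in females than in males, where 48.9% of all 15577 genes were called and 24.7% called higher. The changes of all 10 were positive, from 1.2 to 2.87 on the log2 scale with a median of 1.85, beside 0.0 for all genes. All 10 had an unadjusted edgeR p under 0.05, as did at least the 48.9% of all genes that were called. Plin1, the coat protein of the mature fat droplet, had 15.4, 1.01 and 7.09 CPM in day 2 females, against 0.115, 1.15 and 1.87 CPM in day 2 males. Its log2 change was 2.87 ± 0.79 (edgeR adjusted p = 0.00813). Fabp4 had 70.2, 8.71 and 81.6 CPM in day 2 females, against 4.09, 10.6 and 14.0 CPM in day 2 males, a log2 change of 2.44 ± 0.6 (0.00409). Retn (2.39 ± 0.69, 0.0102), Adipoq (1.82 ± 0.68, 0.0378) and Lpl (1.23 ± 0.42, 0.0248) were the other called members. The ranges overlapped for all 10, and female replicate 2 was the lowest female library for each.

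The day 2 sex calls depended on single libraries. Without female replicate 2 all 10 members were called, where 48.0% of all genes were, with Plin1 at 3.43 ± 0.59 (edgeR adjusted p = 0.000332) and Fabp4 at 2.97 ± 0.37 (2.45e-05). Fabp4 and Retn kept their call without each library in turn. Plin1 lost it without female replicate 1 (1.94, 0.0568). Adipoq lost it without female replicate 1 (1.34, 0.15) or 3 (1.62, 0.0811) or male replicate 1 (1.35, 0.127) or 2 (1.96, 0.0684). Lpl lost it without female replicate 3 (0.43, 0.242) or male replicate 2 (1.04, 0.0932) or 3 (1.25, 0.0571). Plin4, at 1.2 ± 0.55 and not called, stood at -0.05 ± 0.36 without female replicate 3. In that library the mean level of the muscle genes was 9.4 log2 CPM. Fabp4 (81.6 CPM) and Cidec (14.3 CPM) were also at their DRG maximum in it. What moved Plin4 was not tested. With only the compared groups in the fit, 1 member was called, where 44.7% of all genes were, and Adipoq (0.124), Plin1 (0.0562), Retn (0.0596) and Lpl (0.105) had the adjusted p-values given.

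On day 6 the female libraries lay above the male libraries without overlap for 9 of the 10 members, Lep being the exception, where 49.9% of all genes did not overlap. Cfd, the complement protease, had 35.1, 35.5 and 35.6 CPM in day 6 females, against 5.34, 22.3 and 14.4 CPM in day 6 males. Its log2 change was 1.32 ± 0.7 (edgeR adjusted p = 0.155). Pck1 had 5.01, 2.67 and 9.5 CPM in day 6 females, against 0.712, 2.47 and 1.59 CPM in day 6 males, a change of 1.82 ± 0.74 (0.0664). Fabp4 was the 1 member called, at 27.6, 25.4 and 37.5 CPM in day 6 females, against 6.95, 13.1 and 9.22 CPM in day 6 males, with a change of 1.61 ± 0.6 (0.0435), where 39.9% of all genes were called. That call was lost without any 1 of the 6 libraries, at adjusted p-values of 0.0656, 0.0565 and 0.112 without female replicates 1, 2 and 3 and of 0.132, 0.0563 and 0.109 without male replicates 1, 2 and 3. Without female replicate 2, Pck1 was called in its place (2.16, 0.0425). The spread in the fit was shared with the day 2 groups. With only the compared groups in the fit, 9 members were called, where 36.6% of all genes were.

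Day 6 males were also lower than vehicle females, which belong to the same set of libraries by their ambiguous reads. The libraries did not overlap for 9 of the 10 members, against 27.4% of all genes. Cfd had 5.34, 22.3 and 14.4 CPM in day 6 males, against 50.3, 50.2 and 75.5 CPM in vehicle females, a log2 change of -2.01 ± 0.7 (edgeR adjusted p = 0.141). Pck1 had 0.712, 2.47 and 1.59 CPM in day 6 males, against 8.06, 4.55 and 9.77 CPM in vehicle females, a change of -2.17 ± 0.74 (0.132). The median change of the 10 was -1.66, beside 0.01 for all genes. None was called by edgeR or DESeq2 in the fit over all DRG groups, where 5 had an unadjusted p under 0.05 and edgeR called 1.79% of all genes, while 8 were called with only the compared groups in the fit, where 5.87% of all genes were. Day 2 males over vehicle females gave no call by either tool (5 with an unadjusted p under 0.05, median -1.56, 0.315% of all genes called). In both comparisons sex and treatment cannot be told apart, and the share of all genes under the unadjusted threshold is not given here.

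Within males, replicate 1 of day 2 was the lowest DRG library for 8 members, with 0 reads for Lep, 3 for Plin1 and 3 for Retn. Its Lpl level of 25.4 CPM was the highest of the 6 male libraries, and its Plin4 level was 6.05 CPM.

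Against vehicle females, treated females gave no call in DRG. On day 2 Lep had 1.27, 0.253 and 0.84 CPM, against 0.0794, 0.172 and 0.363 CPM in vehicle, a log2 change of 1.91 ± 0.78 (edgeR adjusted p = 0.0558). Lpl had 38.2, 16.7 and 89.3 CPM on day 2, against 22.2, 26.1 and 28.2 CPM in vehicle, a change of 0.92 ± 0.41 (0.0765). These were the 2 members with an unadjusted p under 0.05, where 49.8% of all genes were called, and DESeq2 called 0. On day 6 none had an unadjusted p under 0.05 and DESeq2 called 0, where edgeR called 41.5% of all genes.

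The day 2 result turned on replicate 2 of the treated females. Without it 6 members were called higher than vehicle, where 49.2% of all genes were called: Lep at 2.36 ± 0.73 (edgeR adjusted p = 0.0162), Plin1 at 1.66 ± 0.53 (0.0186), Plin4 at 1.4 ± 0.38 (0.00757), Fabp4 at 1.29 ± 0.35 (0.00764), Retn at 1.27 ± 0.48 (0.0423) and Lpl at 1.34 ± 0.29 (0.0019). Adipoq (0.66 ± 0.46) and Cfd (0.41 ± 0.58) were not. Without vehicle replicate 3, Lep alone was called (2.62 ± 0.98, 0.0461). The Plin4 change over all 3 libraries was 0.9 (adjusted p = 0.183), and without day 2 replicate 3 it was -0.36 ± 0.35. The mean level of the muscle genes in that library was 9.4 log2 CPM, against 5.37 and 5.36 in replicates 1 and 2 and 4.08 to 5.28 in vehicle females. A link between the muscle level and the Plin4 change was not tested. Day 6 over day 2 gave no call in females (1 of 10 with an unadjusted p under 0.05, 0.18% of all genes called by edgeR) or males (none, 0.0%) by edgeR or DESeq2, and the sex difference in that change was not called for any member (lowest edgeR adjusted p = 0.733, 0.0% of all genes called).

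Markers of other tissue also varied between DRG libraries. The keratinocyte markers split between treated females and the other groups, as the library sets do. All 8 tested genes of the keratinocyte list were called higher in treated females in each comparison with males or vehicle. Of all genes, 48.9% and 39.9% were called either way over males on days 2 and 6, and 49.8% and 41.5% over vehicle females. The keratinocyte list summed to 212 to 269 CPM in day 2 females and 184 to 276 CPM in day 6 females. It summed to 27.8 to 32.4 CPM in day 2 males, 40.3 to 62.7 CPM in day 6 males and 29.8 to 32.6 CPM in vehicle females. The summed muscle list reached 639.5 to 10642 CPM in day 2 females, 315 to 5437 CPM in day 6 females, 111 to 2711 CPM in day 2 males, 227 to 742 CPM in day 6 males and 269 to 631 CPM in vehicle females. Its medians in the same order were 660, 873, 1704, 574 and 608 CPM, the highest being that of day 2 males. None of the keratinocyte or muscle genes was at 0 in all libraries of a group. Their part in the adipocyte results was not tested.

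The spread over libraries was wider in DRG than in paw for each member whose lowest value was above 0. The highest library exceeded the lowest 4.19-fold for Pck1 to 7.13-fold for Cfd in paw among these 9, and 6.25-fold for Lpl, 10.5-fold for Plin4, 19.9-fold for Fabp4, 21.1-fold for Adipoq, 28.6-fold for Pck1, 32.6-fold for Cfd, 41.5-fold for Cidec, 60.8-fold for Retn and 134-fold for Plin1 in DRG. The DRG folds of Retn and Plin1 rest on 3 reads each in replicate 1 of day 2 males. The median correlation between pairs of members on the log2 scale was 0.837 over the 15 DRG libraries (range 0.502 to 0.981) and 0.577 over the 24 paw libraries (range 0.0899 to 0.938). These correlations are descriptions, over libraries that share groups and library sets. In DRG, Lpl, Plin4 and Lep followed the other members less closely than the remaining 7. The correlation with the mean of the other 9 was 0.672 for Lpl, 0.762 for Plin4 and 0.764 for Lep, and 0.908 to 0.986 for those 7. In paw Retn, Pck1 and Lep followed least closely, at 0.549, 0.559 and 0.59, against 0.699 (Plin4) to 0.9 (Lpl) for the remaining 7.

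The genes outside the 10 whose log2 levels correlated best with the members' mean were, in DRG, Ces1d (r = 0.963), Lipe (0.957), Adrb3 (0.949), Thrsp (0.947), Adig (0.92) and Slc1a5 (0.917), over 15 libraries. Lipe is hormone-sensitive lipase, Adrb3 the β3-adrenergic receptor of fat cells and Adig the adipocyte protein adipogenin. Adrb3 ran between 0.191 and 6.63 CPM in these samples. In paw they were Aoc3 (0.884), Apol6 (0.881), Abcd2 (0.862), Rasip1 (0.849), Gpd1 (0.84) and Serpinb9 (0.831), over 24 libraries. Aoc3 is an amine oxidase abundant in fat and vessel walls, and Gpd1 makes glycerol 3-phosphate. No gene was in both sets of 6.

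**Figure D5:**
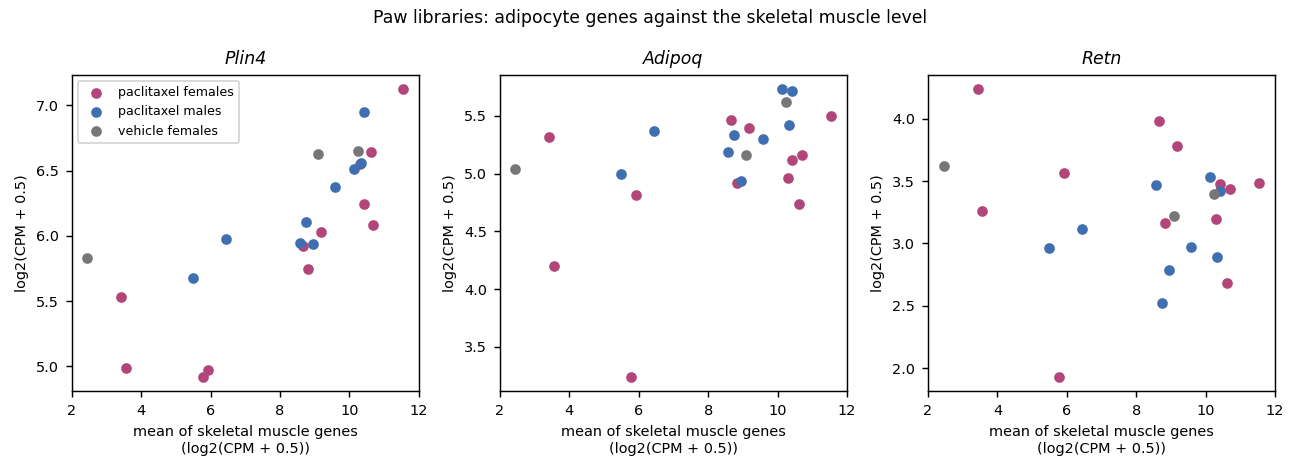
Log2(CPM + 0.5) of Plin4, Adipoq and Retn (y axis) against the mean log2(CPM + 0.5) of the skeletal muscle genes (x axis) in the 24 paw libraries, with treated females in pink, treated males in blue and vehicle females in grey. The 17 libraries right of 8.58 rise with muscle in the Plin4 panel (r = 0.76) and not in the Retn panel (r = 0.0338).

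Plin4 and Lpl levels rose with the level of skeletal muscle genes among the paw biopsies that held more muscle RNA. The muscle level, the mean log2(CPM + 0.5) of 12 muscle genes, fell into 7 libraries at 2.45 to 6.44 and 17 libraries at 8.58 to 11.6, a division made after the values were seen. Among the 17, Lpl had r = 0.782 (permutation p = 0.00016, adjusted over 30 relations 0.0048) and Spearman's rho = 0.725 (p = 0.00134, adjusted 0.0402). Plin4 had r = 0.76 (p = 0.00055, adjusted 0.00825) and rho = 0.676 (p = 0.00327, adjusted 0.049). Without the 2 libraries farthest from the median muscle level r was 0.817 for Lpl and 0.705 for Plin4. Within the 8 treated-female libraries r was 0.855 for Lpl and 0.851 for Plin4, and within the 9 others 0.82 and 0.825. Fabp4 had r = 0.609 (p = 0.00764, adjusted 0.0764, within the 8 treated-female and the 9 other libraries 0.465 and 0.771), and the other 7 members had r of 0.0338 (Retn) to 0.467 (Lep), none with an adjusted p under 0.05. Among the 7 low-muscle libraries no relation passed (exact permutation test, Lpl r = -0.297, Plin4 r = -0.118). Permutations here and in DRG moved libraries freely across groups and library sets, so the p-values treat the libraries as interchangeable.

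In DRG 13 libraries had muscle levels of 2.45 to 6.74 and no member had an adjusted p under 0.05 against muscle among them (Lpl r = 0.389, permutation p = 0.187, Plin4 r = 0.0232, p = 0.938). The other 2 DRG libraries were replicate 3 of day 2 females at 9.4 and replicate 2 of day 6 females at 8.44. They held the highest Lpl and Plin4 levels of their groups, at 89.3 and 39 CPM on day 2 and 32.7 and 12.7 CPM on day 6.

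Genes of the wider fat cell programme were read as lists from general knowledge, chosen with earlier results of these data known. The counts of genes called are descriptions beside the share of all genes called. Among 11 adipocyte regulators in paw females, 3 were called higher and 1 lower on day 2 (median log2 change 0.15, all genes 0.04), where 29.0% of all genes were called. Cebpb, a C/EBP factor with broad roles in inflammation and keratinocytes, stood at 148 ± 22.5 CPM on day 2, against 72.5 ± 9.27 CPM in vehicle (SD, n = 3 each), a log2 change of 1.11 ± 0.2 (edgeR adjusted p = 0.000463). Klf5, which is also a basal epithelial factor, fell to 70.7 ± 23.8 CPM, against 155 ± 8.93 CPM (-1.05 ± 0.17, 0.000181). Cebpa rose on day 6 (0.82 ± 0.19, 0.00274). In DRG 4 of the 11 regulators were called higher and 2 lower in day 2 females over vehicle, where 49.8% of all genes were called, with Cebpa at 16.7 ± 4.15 CPM, against 9.6 ± 0.723 CPM (0.81 ± 0.17, 0.00126), and Ebf1 at 54.1 ± 2.8 CPM, against 99.0 ± 6.25 CPM (-0.87 ± 0.06, 1.13e-07). With all libraries in the fit, Lep, Plin1 and Cidec, shown above with a C/EBP element, were not called against vehicle in either tissue. Without replicate 2 of day 2 females in DRG, Lep and Plin1 were called higher, as given above. A link between these factors and the members was not tested.

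Of 8 triglyceride synthesis genes in paw females on day 6, 3 were called higher and none lower (median -0.11, all genes -0.02), where 29.5% of all genes were called. Agpat2, the acyltransferase missing in a human congenital lipodystrophy, had 14.0 ± 3.23 CPM, against 7.75 ± 1.25 CPM in vehicle (1.0 ± 0.17, 0.00016). Among 10 fatty acid synthesis genes, 3 were higher and none lower on day 6, and none higher and 2 lower on day 16, where 21.7% of all genes were called. Those 2 were Scd1, the stearoyl-CoA desaturase of fat and sebaceous gland (1244 ± 58.9 CPM, against 2452 ± 308 CPM, -0.88 ± 0.19, 0.00255), and Thrsp, a lipogenic protein (1.8 ± 1.05 CPM, against 6.0 ± 3.46 CPM, -1.66 ± 0.53, 0.0307). Leaving out day 16 replicate 1 (0.0882) or 3 (0.115) or vehicle replicate 1 (0.0994) or 2 (0.126) ended the Thrsp call, as did fitting only the compared groups (0.132). Of 11 lipolysis and droplet genes 1 was called lower on day 16 and none higher, and of 18 other white adipocyte markers 2 lower and none higher, against the same 21.7%. The 1 was Adrb3, at 0.968 ± 0.214 CPM, against 2.35 ± 0.475 CPM (-1.18 ± 0.37, 0.0281), and its call was lost without vehicle replicate 2 (0.105) or 3 (0.0659) or day 16 replicate 1 (0.108) or 3 (0.0731). Mrap, the melanocortin receptor partner, fell to 0.839 ± 0.235 CPM, against 3.09 ± 0.729 CPM (-1.79 ± 0.4, 0.00296). Among 9 sebaceous gland genes tested in paw, 4 were called lower on day 16 and none higher, against 21.7% of all genes called either way.

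Fuel uptake split by gene. Cd36, the fatty acid transporter, rose in day 2 paws to 134 ± 59.5 CPM, against 70.5 ± 12.9 CPM in vehicle (1.01 ± 0.3, 0.0152), and Fabp5, the epidermal relative of Fabp4, fell to 323 ± 74.4 CPM, against 921 ± 89.4 CPM (-1.43 ± 0.2, 3.47e-05). They were the 2 of 10 called that day, where 29.0% of all genes were. The Cd36 call was lost without vehicle replicate 2 (0.88, 0.0715) or day 2 replicate 3 (0.59, 0.154) and with only the compared groups in the fit (0.99, 0.0748). In DRG Cd36 was higher in day 2 females than in day 2 males, at 24.3 ± 16.9 CPM against 7.96 ± 2.0 CPM (1.56 ± 0.39, 0.00485), and Lipe likewise, at 22.9 ± 8.39 CPM against 11.8 ± 1.78 CPM (0.91 ± 0.21, 0.00277). Among 11 lipolysis and droplet genes 6 were higher and none lower in that comparison (median 0.37, all genes 0.0), where 48.9% of all genes were called and 24.7% called higher.

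Of 18 other white adipocyte markers, 5 were higher and 8 lower in vehicle paws than in vehicle DRG, where 81.1% of all genes were called and 40.0% called higher. The lower ones included Sncg (21.0 ± 0.72 CPM in paw, against 2143 ± 114 CPM in DRG) and Tusc5 (4.91 ± 0.965 CPM, against 719.6 ± 41.6 CPM), both of which sensory neurons also express. Aoc3 was lower in day 6 males, at 4.76 ± 0.625 CPM, than in vehicle females, at 10.4 ± 0.379 CPM (-1.08 ± 0.25, edgeR adjusted p = 0.0421), and was 1 of the 2 of these 18 called there, both lower, where 1.79% of all genes were. That call was lost without any 1 of the 6 libraries (adjusted p = 0.0703 to 0.177) and with the replicate block (0.058). The brown fat marker Ucp1 ran from 0.043 to 1.29 CPM in paw and from 0 to 2.51 CPM in DRG.

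Of 5 receptors of the hormones, 1 was called lower in paw females on day 6 over vehicle, where 29.5% of all genes were called, and none on the other 3 days, where 20.4% to 29.0% were. Cdh13 (T-cadherin, which binds adiponectin) fell on day 6 to 35.6 ± 14.4 CPM, against 81.2 ± 22.5 CPM (-1.05 ± 0.3, edgeR adjusted p = 0.0114). The call was lost without vehicle replicate 1 (-0.85, 0.0639) or day 6 replicate 3 (-0.84, 0.0645). In DRG Lepr, the leptin receptor, fell on day 2 to 9.31 ± 1.06 CPM, against 16.9 ± 3.05 CPM in vehicle females (-0.86 ± 0.19, 0.00224), beside Cdh13 at 6.82 ± 1.92 CPM, against 9.39 ± 0.166 CPM (-0.46 ± 0.17, 0.0391). The other 3 of the 5 did not pass on that day, where 49.8% of all genes were called. The DRG Cdh13 call was lost without day 2 replicate 1 (0.141) or 2 (0.146), without any 1 vehicle library (0.0681 to 0.0839), with only the compared groups in the fit (0.0905) and with the replicate block (0.0524).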

How the data were processed

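The 39 libraries are stranded, poly(A)-selected mRNA libraries read as single 50-base ends, per the labels' protocols. Per the submitters' processing notes, bcl2fastq, TopHat2 and HTSeq were used with mm9; versions, annotation and the strand setting are not given in the sources used here. Each deposited file lists unscaled read counts for every gene. The 5 summary lines of each file stayed out of library sizes and tests, and reads without a feature or with several were 13.91% to 21.55% and 0.21% to 0.75%.

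Counts were tested in edgeR 4.0.16 (R 4.3.3) with TMM scaling, filterByExpr, a quasi-likelihood F test and Benjamini-Hochberg adjustment over all genes tested, with 1 coefficient per group. Separate fits held the 24 paw libraries, the 15 DRG libraries and all 39. The SE is the log2 change divided by the square root of F. CPM used plain library totals. RPKM used the longest principal transcript. None of the 10 genes shared 50 or more exon bases with another gene. Samples were grouped by the labels. No 2 libraries agreed within sampling noise (lowest chi-square per degree of freedom 4.99). The fit was tested on simulated data.

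Alternatives were DESeq2 1.42.0 with its size factors, relative-log-expression scaling in edgeR, no filter, a block for the replicate number, fits of only the compared groups, and leaving out each library. Same-numbered libraries deviated together (every correlation over 0.1) in 6 of 30 comparisons, and no label says what the number marks. The block changed no count of members called.

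All 10 members are named throughout. For other lists, up to 2 called genes each way with the smallest p are named where a list is described, and 6 genes per tissue by correlation with the members' mean. Members and lists were chosen with earlier results of these data known.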

Additional observations from a re-analysis of the deposited data

How the results depend on the processing

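Counts of members called were recomputed for all 32 comparisons. None changed by more than 1.5 times with relative-log-expression scaling, without the filter or with the replicate block, under which 1 member stayed called in paw females on day 2 over vehicle. Among called member changes and named list genes none reversed under any alternative. Of the uncalled changes given, Plin4 in DRG females on day 2 ranged over left-out libraries from -0.36 to 1.4 against vehicle and from -0.05 to 1.72 against males, and Pck1 in paw over DRG females from -0.43 to 0.52 on day 2 and from -0.18 to 0.72 on day 6. For named list genes the alternatives were added after the data were seen. DESeq2 moved 3 counts, to 2 members for paw females on day 16 over vehicle, 1 for day 16 over day 2 and 1 for paw males on day 2 over vehicle females. With only the compared groups in the fit, the count was 0 for paw females on day 16 over vehicle, 0 for day 16 over day 6, 2 for paw males on day 15 over vehicle females, 0 for paw females over males on day 2, 1 for DRG females on day 6 over vehicle, 8 for DRG males on day 6 over vehicle females, 1 for DRG females over males on day 2 and 9 for DRG females over males on day 6. The cause was not tested. Leaving out each library in turn gave, over vehicle in paw females, 1 to 2 members called on day 2 (2 without day 2 replicate 1), 0 to 1 on day 6 and 0 to 3 on day 16 (3 without day 16 replicate 2). It gave 0 to 2 for day 16 over day 2 (2 without day 16 replicate 2), 0 to 1 for day 16 over day 6, 0 to 1 for males on day 15 over vehicle females and 0 to 1 for females over males on days 2 and 6. In DRG it gave 0 to 6 for females on day 2 over vehicle, 3 to 10 for females over males on day 2 and 0 to 1 on day 6. In the other 21 comparisons no count moved by over 1.5 times. Depth limits Lep in DRG, at 0 to 29 reads per library.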
